A study of Mus musculus with 4 samples.

Results

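Messenger RNA of 10 genes that mark endothelial cells, the cells that line blood vessels and the chambers of the heart, was examined in 4 mouse hearts. The genes were Pecam1, Cdh5, Kdr, Tek, Tie1, Vwf, Egfl7, Emcn, Cav1 and Erg. They were taken by symbol from a deposited table of 38355 genes, and all 10 were among the 14189 genes that passed the filter on low counts. The tissue was the free wall of the left ventricle, from 1 untreated mouse per library. WT 1 was a wild-type male and TG 1 a VSFP2.3 transgenic male, both 35 weeks old, and WT 2 was a wild-type female and TG 2 a VSFP2.3 transgenic female, both 19 weeks old. The labels name the same parents for all of them. VSFP2.3 is a fluorescent voltage indicator, targeted in this study to heart muscle cells, and the stated purpose was to determine its toxicity to the heart. The promoter of the transgene, the strain and the number of founder lines are not given in the labels used. The TG and WT mouse of equal sex and age are called a pair.

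Endothelial cells are held together by adherens junctions built on VE-cadherin, and they sense vascular endothelial growth factors (VEGF) and angiopoietins through receptor tyrosine kinases. They store von Willebrand factor in Weibel-Palade bodies for release on injury and carry many caveolae, small pits of the cell surface. Transcription factors of the ETS family, Erg among them, help to maintain this set of genes in adult vessels. Most endothelial cells of the ventricle belong to capillaries, which run beside the muscle fibres.

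Levels are counts scaled to library size (CPM), with sizes adjusted by trimmed means of M values (TMM). Fold changes are log2 values, TG over WT with 2 mice per genotype unless stated, with the standard error (SE) of edgeR's quasi-likelihood fit over all tested genes and Benjamini-Hochberg adjusted p-values. With 2 mice per genotype, a p-value measures only how these 4 animals varied. The 2 mice of each genotype also differed in sex and age, which the main fit did not model, so the SE includes that difference. Library totals ran from 14158440 to 16762713 counts. WT 2 stood apart, with 89.9% of its counts in protein-coding genes against 96.7 to 97.4% in the others, 4.09% in the non-coding gene Yam1 against 0.0141 to 0.0476%, and 137304 counts of Lars2 against 314 to 780. Xist and Ddx3y matched the labelled sex of all 4 mice, whereas the genotype labels had no such check, the transgene not being measured here. Muscle genes were abundant, with Myh6, the adult cardiac myosin heavy chain, at 18365 CPM in WT 1, 27275 in WT 2, 32115 in TG 1 and 21134 in TG 2.

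No endothelial identity gene passed the test between TG and WT hearts. Summed over the 10 genes, the level was 1435 CPM in WT 1, 1710 in WT 2, 1585 in TG 1 and 1513 in TG 2. The highest library was thus 1.19 times the lowest, and both TG sums lay between the WT sums. With library totals as the scaling the sums were 1523 and 1595 CPM in the WT hearts and 1500 and 1610 in the TG hearts, and with totals that leave out Yam1 and Lars2 they were 1524 and 1677 CPM in the WT hearts and 1500 and 1610 in the TG hearts, so the place of the TG sums depends on the scaling. Of the 10 genes, 0 had an adjusted p below 0.05 by edgeR, like 0% of all genes tested, and 0 had an unadjusted p below 0.05, against 0.698% of all. DESeq2 and limma-voom likewise called 0 of the 10 and had 0 below an unadjusted 0.05. Fitted values were higher in TG for 3 genes (47.5% of all genes tested) and lower for 7 (52.5%), with a median of -0.029 beside -0.011 over all. Without WT 2, 7 genes were higher in TG, and without TG 2, 6 were. In bulk tissue fewer endothelial cells and less RNA per cell cannot be told apart.

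**Figure D1:**
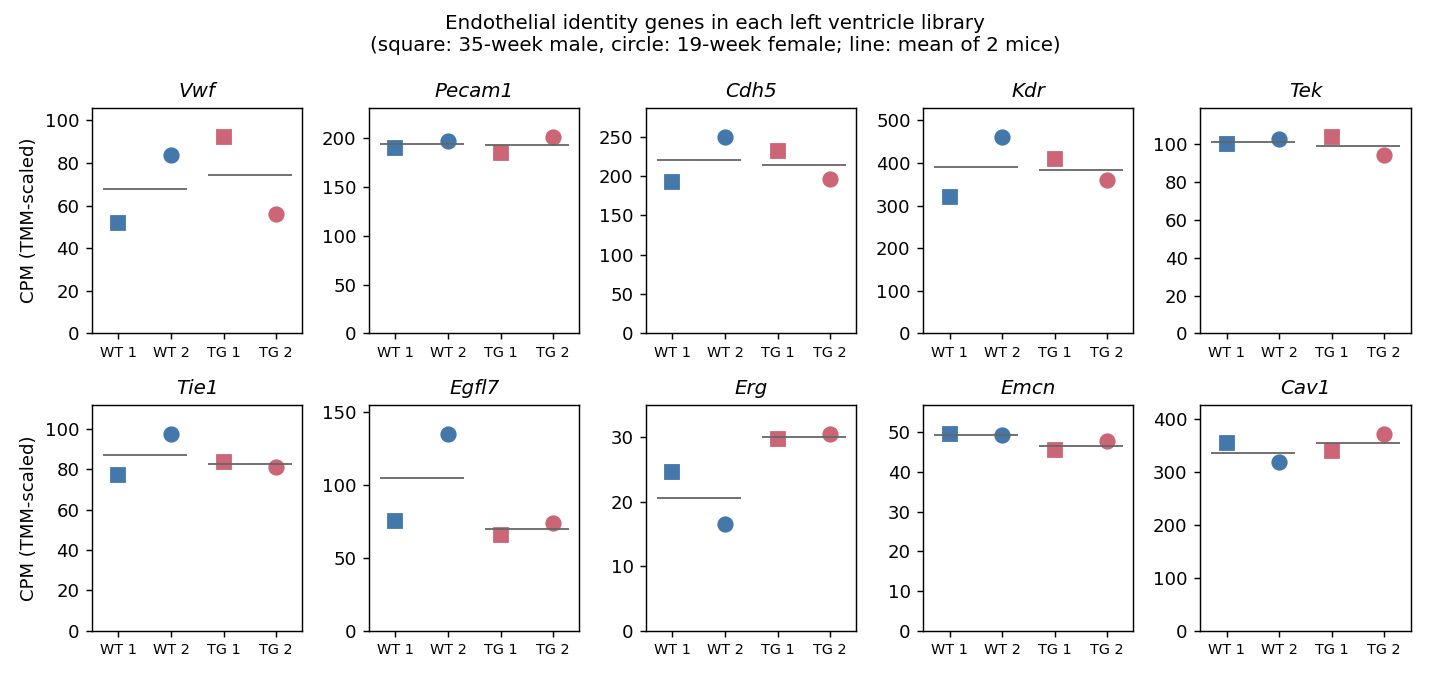
Level of each of the 10 endothelial identity genes (CPM, TMM-scaled, axis from 0) in the 4 libraries, with WT in blue, TG in red, squares for 35-week males, circles for 19-week females and a line at the mean of each genotype. With this scaling Pecam1, Tek, Emcn and Cav1 were nearly level, Vwf was high in WT 2 and TG 1, and Egfl7 was high and Erg low in WT 2.

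Of the junction genes, Pecam1 was nearly level with TMM and Cdh5 was not. Pecam1 (ENSMUSG00000020717, chromosome 11, 106654217 to 106750628 on the minus strand in mm10) encodes an adhesion molecule of endothelial junctions that platelets and leukocytes also carry. It was at 189.8 CPM in WT 1, 198 in WT 2, 185 in TG 1 and 201 in TG 2. The genotypes overlapped, the log2 fold change was -0.0048 ± 0.14, and 3.95% of all genes tested had a smaller span from lowest to highest library. With library totals it ran wider, from 175 to 214 CPM. The pan-leukocyte gene Ptprc spread far more, at 73.4 CPM in WT 1, 11.6 in WT 2, 9.53 in TG 1 and 60.3 in TG 2. Cdh5 (ENSMUSG00000031871, chromosome 8, 104101625 to 104144511 on the plus strand) encodes VE-cadherin, the adhesive core of the endothelial adherens junction. It was at 192 CPM in WT 1, 249.7 in WT 2, 231 in TG 1 and 197 in TG 2. WT 2 and TG 1, 1 library of each genotype, were the high ones, and the log2 fold change was -0.044 ± 0.20. For both Pecam1 and Cdh5 edgeR gave an adjusted p of 1.00.

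The receptor tyrosine kinases Kdr, Tek and Tie1 receive the growth factor and angiopoietin signals. Kdr (ENSMUSG00000062960, chromosome 5, 75932827 to 75978458 on the minus strand), the main receptor for VEGF-A, was at 321 CPM in WT 1, 461 in WT 2, 408 in TG 1 and 360.3 in TG 2. The libraries stood in the same order as for Cdh5 and the genotypes overlapped, with a log2 fold change of -0.024 ± 0.22. Tek (ENSMUSG00000006386, chromosome 4, 94739289 to 94874976 on the plus strand), the angiopoietin receptor also called Tie2, was at 100.1 CPM in WT 1, 102 in WT 2, 104 in TG 1 and 94.2 in TG 2. It was nearly level, with a log2 fold change of -0.033 ± 0.14, and 5.50% of all genes tested had a smaller span. Tie1 (ENSMUSG00000033191, chromosome 4, 118471191 to 118490061 on the minus strand), a receptor that modulates Tek, was at 77.2 CPM in WT 1, 97.3 in WT 2, 83.8 in TG 1 and 81.4 in TG 2. With this scaling WT 2 was highest and the other 3 lay together, with a log2 fold change of -0.079 ± 0.17. With library totals Tie1 was at 81.9 CPM in WT 1, 90.7 in WT 2, 79.3 in TG 1 and 86.6 in TG 2. Each receptor had an adjusted p of 1.00 by edgeR.

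The promoters of these receptors are shown because Kdr and Tie1 had the same highest and lowest library with TMM while Tek was nearly level. Each line is the 250 bases before the outermost start in RefSeq (GRCm38.p6, the assembly of mm10), 5′ to 3′ on the strand of the gene, with the ETS core letters GGAA or, for the other strand, TTCC in capitals. The windows are chr5:75978456-75978705, minus strand, for Kdr, chr4:94739039-94739288, plus strand, for Tek and chr4:118489850-118490099, minus strand, for Tie1. Most of the Tie1 window lies inside the span of the gene given above, since the RefSeq start lies within that span. The Kdr window overlaps the span of its gene by a few bases and the Tek window does not overlap it.
Kdr: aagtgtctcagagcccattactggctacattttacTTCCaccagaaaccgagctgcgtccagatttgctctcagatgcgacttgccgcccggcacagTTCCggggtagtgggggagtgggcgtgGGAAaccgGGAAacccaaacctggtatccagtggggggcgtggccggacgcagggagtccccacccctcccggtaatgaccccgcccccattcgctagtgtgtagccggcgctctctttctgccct
Tek: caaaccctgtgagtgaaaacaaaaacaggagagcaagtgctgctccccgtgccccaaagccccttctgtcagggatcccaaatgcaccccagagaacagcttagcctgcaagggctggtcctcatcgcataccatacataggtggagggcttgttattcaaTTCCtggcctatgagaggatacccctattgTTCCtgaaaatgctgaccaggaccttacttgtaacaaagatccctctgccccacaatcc
Tie1: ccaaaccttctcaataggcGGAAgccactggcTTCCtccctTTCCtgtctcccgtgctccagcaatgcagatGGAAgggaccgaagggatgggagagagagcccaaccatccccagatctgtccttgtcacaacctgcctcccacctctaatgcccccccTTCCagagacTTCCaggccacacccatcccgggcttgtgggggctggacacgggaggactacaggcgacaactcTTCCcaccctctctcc
Kdr held 4 matches, Tek 2 and Tie1 7, where the median of 32851 promoter windows of the same length was 3 and 93.4% held at least 1. The longer form AGGAAG, which contains the core and was also read on both strands, occurred 1 time in Tie1 and 0 times in Kdr and Tek, and 29.5% of all windows held it. A match describes letters only. Of the 10 genes, 7 had an entry in the promoter table.

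Of the 10 genes, Vwf had the largest difference between the ratios of the male and the female pair, both with TMM and with library totals. Vwf (ENSMUSG00000001930, chromosome 6, 125546774 to 125686679 on the plus strand) encodes von Willebrand factor, which tethers platelets to injured vessel walls. It was at 51.7 CPM in WT 1, 83.7 in WT 2, 92.2 in TG 1 and 56.2 in TG 2. Each genotype held 1 high and 1 low heart. The log2 fold change was 0.13 ± 0.34 (adjusted p of 1.00 by edgeR), and it was -0.27 without TG 1, -0.17 without WT 1 and 0.047 with the trend of fold change with gene length removed. Platelets and megakaryocytes also make Vwf. Their surface glycoprotein genes Gp1ba, Gp9 and Gp5 had at most 1, 9 and 2 counts in any library. The platelet chemokine Pf4 was at 9.36 CPM in WT 1, 4.86 in WT 2, 5.76 in TG 1 and 7.64 in TG 2, and the platelet integrin Itga2b at 0.996 to 1.64 CPM. Of 12 platelet genes, 4 passed the filter, and the summed level of all 12 was 20.6 CPM in WT 1, 15.0 in WT 2, 13.6 in TG 1 and 15.7 in TG 2. The part of platelets in the level of Vwf was not tested.

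Egfl7 and Erg stood apart in WT 2, in opposite directions. Egfl7 (ENSMUSG00000026921, chromosome 2, 26580014 to 26593120 on the plus strand) encodes a protein that endothelial cells secrete into their matrix. It was at 75.2 CPM in WT 1, 135 in WT 2, 65.9 in TG 1 and 74.1 in TG 2. Both TG values lay below both WT values, narrowly so for WT 1. The log2 fold change was -0.58 ± 0.30 (unadjusted p = 0.115, adjusted p of 1.00 by edgeR) and -0.10 without WT 2. Erg (ENSMUSG00000040732, chromosome 16, 95359169 to 95586593 on the minus strand), the ETS factor of the group, was at 24.6 CPM in WT 1, 16.6 in WT 2, 29.7 in TG 1 and 30.4 in TG 2. Both TG values lay above both WT values. The log2 fold change was 0.55 ± 0.23 (unadjusted p = 0.0610, adjusted p of 1.00 by edgeR) and 0.29 without WT 2. Egfl7 and Emcn, 2 of the 10, had both TG values below both WT values, against 10.7% of all genes tested, and Erg had both above, against 10.3%. With library totals as the scaling the genotypes overlapped for Emcn.

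Base composition was set beside these values because WT 2 stood apart. The longest annotated transcript has 57.1% G and C for Egfl7 and 50.8% for Erg. In the 2645 protein-coding genes among the 20% of tested genes richest in G and C, WT 2 lay above the mean of the other 3 libraries. The median difference was 0.12 on the log2 scale (quartiles -0.10 and 0.33), and for Egfl7, which is among them, it was 0.91. Vwf and Tie1, from the same bin, lay above by 0.38 and 0.27. For Erg the difference was -0.76, where the median of its bin was -0.0040 (quartiles -0.18 and 0.16). The part of base composition in these values was not tested. The count of Egfl7 is uncertain where annotated genes overlap: 7.37% of its exonic length is shared with Gm20532 and 2.04% with the microRNA gene Mir126a, both on the same strand and at 0 counts in every library, and 1.79% with Agpat2 on the opposite strand.

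The windows before the outermost RefSeq starts of Egfl7 (chr2:26580833-26581082, plus strand) and Erg (chr16:95586594-95586843, minus strand) are shown, with GGAA and TTCC in capitals, because these genes had the largest fitted differences of the 10. The Egfl7 window lies wholly inside the span of the gene given above, which begins further upstream than this RefSeq start. The Erg window lies outside the span of its gene.
Egfl7: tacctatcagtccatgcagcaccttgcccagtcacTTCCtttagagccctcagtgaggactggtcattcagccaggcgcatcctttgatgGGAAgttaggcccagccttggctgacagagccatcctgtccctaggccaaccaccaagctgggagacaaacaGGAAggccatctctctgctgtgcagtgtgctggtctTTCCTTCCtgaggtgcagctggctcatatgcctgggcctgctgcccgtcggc
Erg: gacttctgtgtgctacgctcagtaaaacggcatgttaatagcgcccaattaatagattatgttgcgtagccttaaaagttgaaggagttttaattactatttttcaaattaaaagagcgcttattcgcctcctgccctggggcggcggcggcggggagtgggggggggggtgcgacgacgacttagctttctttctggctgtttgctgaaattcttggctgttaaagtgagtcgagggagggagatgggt
Egfl7 held 5 matches, a number that 18.0% of all windows reach or exceed, and 3 matches to AGGAAG. Erg held 0 of either in this window. Both genes have 2 further starts in the table, with 3 and 1 matches to GGAA for Egfl7 and 4 and 2 for Erg. Gene counts do not tell which start was in use.

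Emcn and Cav1 varied little with TMM and more with library totals. Emcn (ENSMUSG00000054690, chromosome 3, 137341067 to 137432185 on the plus strand) encodes endomucin, a sialomucin on the surface of capillary and venous endothelium. It was at 49.5 CPM in WT 1, 49.3 in WT 2, 45.5 in TG 1 and 47.7 in TG 2. Its log2 fold change was -0.083 ± 0.13, and 3.85% of all genes tested had a smaller span. Cav1 (ENSMUSG00000007655, chromosome 6, 17306335 to 17341452 on the plus strand) encodes caveolin 1, a coat protein of caveolae that adipocytes and smooth muscle cells make as well. It was at 354 CPM in WT 1, 318 in WT 2, 340.1 in TG 1 and 371 in TG 2. The genotypes overlapped, with a log2 fold change of 0.080 ± 0.15. With library totals Emcn ran from 43.0 to 52.5 CPM and Cav1 from 297 to 395 CPM. For Emcn and Cav1, too, edgeR gave an adjusted p of 1.00.

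Per length, the 10 genes differed widely in level. In CPM per kb of exonic length (mean ± SD over the 4 libraries), Cav1 was highest at 100.5 ± 6.50, followed by Cdh5 at 51.7 ± 6.61 and Kdr at 42.9 ± 6.70. Pecam1 was at 31.0 ± 1.20, Egfl7 at 24.4 ± 8.89, Tek at 21.2 ± 0.904 and Tie1 at 17.3 ± 1.77. The lowest were Emcn at 8.87 ± 0.344, Erg at 7.30 ± 1.84 and Vwf at 4.42 ± 1.25. Neighbours in this order whose libraries overlapped were Cdh5 and Kdr, Pecam1 and Egfl7, Egfl7 and Tek, Emcn and Erg, and Erg and Vwf. Cdh5 was nonetheless above Kdr in each of the 4 libraries. Exonic length merges all annotated exons, 16064 bases for Vwf, and so sets genes with many alternative exons low.

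**Figure D2:**
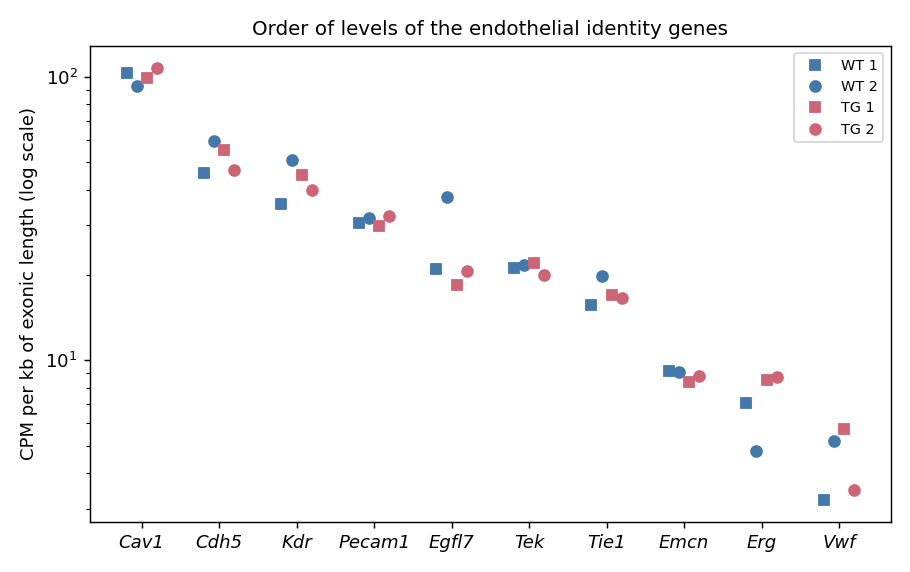
Level per length of the 10 endothelial identity genes (CPM per kb of exonic length, log axis) in order of the mean, with 1 point per library. Cav1 stood above all others in every library, and Egfl7 in WT 2 lay at 37.7 against 18.4 to 21.0 in the other 3.

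Within the pairs, several of these genes stood in opposite directions. Vwf was 1.78 times as high in TG 1 as in WT 1 (log2 ratio 0.83, 95% exact counting interval 0.71 to 0.96) and 0.671 times as high in TG 2 as in WT 2 (-0.57, interval -0.70 to -0.45). Kdr had log2 ratios of 0.35 in the male pair (interval 0.29 to 0.40) and -0.35 in the female pair (-0.41 to -0.30). Cdh5 had 0.27 (0.20 to 0.34) and -0.34 (-0.41 to -0.27). The intervals cover counting error only, not the spread between animals, of which each pair has 1 per genotype. Tie1 at 0.12 and -0.26 and Tek at 0.052 and -0.12 shared this direction, which makes 5 of 10, against 32.8% of all genes tested. The opposite order was that of Cav1 at -0.059 and 0.22 and Pecam1 at -0.039 and 0.027, 2 of 10, against 31.9%. Erg was higher in TG in both pairs, at 0.27 and 0.87 (16.7% of all genes tested). Egfl7 at -0.19 and -0.86 and Emcn at -0.12 and -0.045 were lower in both (18.6%).

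Some of these directions turned with the scaling of the libraries. With library totals alone the median ratio of all genes tested was -0.17 and 0.18 in the male and female pair, against -0.0049 and -0.0093 with TMM. Vwf at 0.67 and -0.39, Kdr at 0.18 and -0.17 and Cdh5 at 0.10 and -0.15 were still higher in the male and lower in the female pair, as were 14.6% of all genes tested. Tie1 was then lower in both pairs, Tek was at -0.11 and 0.068 and Emcn at -0.29 and 0.14. Genotype, pair and their interaction would use up all degrees of freedom of 4 libraries, so the difference between the pairs was not tested.

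**Figure D3:**
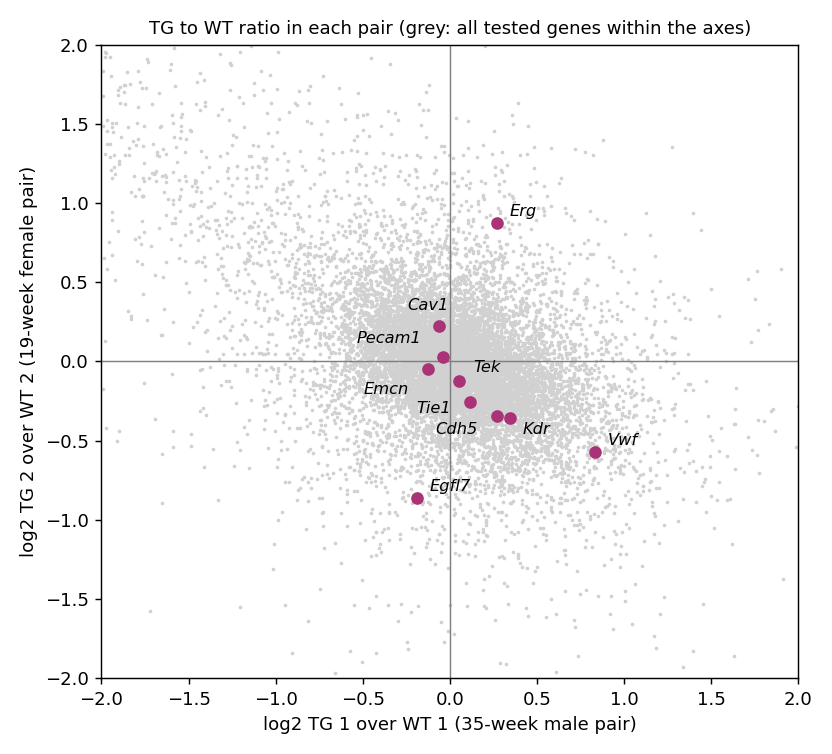
Log2 ratio of TG over WT in the 35-week male pair (horizontal) and the 19-week female pair (vertical), with the 10 endothelial identity genes in purple and 13760 tested genes in grey (429 lie outside the axes). Vwf, Kdr, Cdh5 and Tie1 lay to the lower right, Erg to the upper right and Egfl7 to the lower left.

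Markers of other cells also differed among these libraries. The summed level of 16 macrophage and other leukocyte genes was 1140 CPM in WT 1, 379.7 in WT 2, 381 in TG 1 and 884 in TG 2. That of 12 lymphocyte genes was 39.1 CPM in WT 1, 3.13 in WT 2, 2.06 in TG 1 and 39.7 in TG 2. Both were low in WT 2 and TG 1, where Vwf, Kdr and Cdh5 were high. The summed level of 12 cardiomyocyte genes was 137736 CPM in WT 1, 183959 in WT 2, 217975 in TG 1 and 143938 in TG 2, which is the order of Vwf. Such a sum is weighted to the most abundant genes. Of the 12, 6 were higher in the male and lower in the female pair (32.8% of all genes tested) and 2 the other way (31.9%), with medians of 0.14 and -0.046. Fibroblast genes summed to 3603 CPM in WT 1, 4037 in WT 2, 3942 in TG 1 and 4169 in TG 2. Smooth muscle and pericyte genes summed to 2472 CPM in WT 1, 1825 in WT 2, 2855 in TG 1 and 2493 in TG 2. The latter sum was higher in TG 2 than in WT 2, but the median log2 ratio of these 12 genes was -0.20 there. Their median for TG 1 over WT 1 was 0.13. The abundant pericyte gene Rgs5, low in WT 2, is part of that sum. The part of these other cells in the values of Vwf, Kdr and Cdh5 was not tested.

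The 35-week males and 19-week females were also compared, and here sex and age cannot be told apart. Of the 10 genes, 0 passed the edgeR test, against 0.0282% of all genes tested, and 0 had an unadjusted p below 0.05, against 3.62%. DESeq2 and limma-voom also called 0 of the 10. Males over females, the log2 fold changes ran from -0.57 ± 0.31 for Egfl7 to 0.21 ± 0.32 for Erg, with a median of -0.054 beside 0.010 over all. Without WT 2 the values of Egfl7 and Erg were -0.074 and -0.17. With TMM, Pecam1, at -0.091 ± 0.12, was the 1 gene of the 10 with both males below both females, against 15.9% of all genes tested, and 0 had both males above, against 15.5%. With library totals as the scaling the males and females overlapped for Pecam1.

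Among 29 other pan-endothelial genes 0 passed the edgeR test, 15 were higher and 14 lower in TG, and the median was 0.0081. The adhesion receptor Gpr116 had the smallest p at 0.38 ± 0.14 (unadjusted p = 0.0399, adjusted p of 1.00 by edgeR), with 336 and 322 CPM in the WT hearts and 445 and 412 in the TG hearts. Cldn5, a tight junction gene, was next at -0.36 ± 0.21. The VEGF receptor Flt1 was at 142 CPM in WT 1, 183 in WT 2, 194 in TG 1 and 162 in TG 2, with WT 2 and TG 1 high as for Kdr. The TGF-beta coreceptor Eng was at 91.3 CPM in WT 1, 155 in WT 2, 124 in TG 1 and 130.1 in TG 2. The nitric oxide synthase Nos3 was at 25.7 CPM in WT 1, 39.0 in WT 2, 27.6 in TG 1 and 27.0 in TG 2, and both were highest in WT 2. Within the pairs 18 of the 29 were higher in the male and lower in the female pair (32.8% of all genes tested) and 4 the other way (31.9%). With library totals these counts were 6 and 15, where the shares of all genes tested were 14.6% and 55.6%. Some of the 29 are also in lists described below, so these lists are not separate sets. Sox17 is also an arterial gene of those lists, Ptprb an angiopoietin-Tie partner and Fli1 an ETS gene. The flow-responsive factor Klf2, chosen after its values were seen, was at 8.70 CPM in WT 2 against 25.2 to 29.9 in the other 3.

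The ligands and partners of the receptors did not pass the test either. Of the VEGF ligands and receptors other than Kdr 4 of 10 were higher in TG, with a median of -0.036. Vegfb, a ligand of Flt1, was at 81.7 and 61.3 CPM in the WT hearts and 110.0 and 99.6 in the TG hearts. Its log2 fold change was 0.55 ± 0.19 (unadjusted p = 0.0365, adjusted p of 1.00 by edgeR), and both TG values lay above both WT values. Vegfa, the ligand of Kdr, was at 174 CPM in WT 1, 298 in WT 2, 203 in TG 1 and 202 in TG 2, highest in WT 2 like Kdr, with -0.22 ± 0.28. The coreceptor Nrp1 was at -0.071 ± 0.18. Among the angiopoietin-Tie partners 3 of 6 were higher, with a median of 0.086. Angpt1, which activates Tek, was at 33.2 CPM in WT 1, 21.2 in WT 2, 36.9 in TG 1 and 35.6 in TG 2, low in WT 2, with 0.41 ± 0.24. Angpt2, its context-dependent antagonist, was at -0.32 ± 0.24, and Ptprb, the phosphatase that restrains Tek, at 0.36 ± 0.26.

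Of the partners of the structural genes 0 passed the test. For adherens junction partners of Cdh5 and Pecam1, several of which heart muscle also uses, 10 of 14 were higher in TG, with a median of 0.063 (plakoglobin, Jup, at 0.34 ± 0.18 and alpha-catenin, Ctnna1, at 0.21 ± 0.14). For caveola genes 3 of 9 were higher, with a median of -0.030. Cav2, which assembles with Cav1, had 92.5 and 92.8 CPM in the WT hearts and 84.6 and 94.4 in the TG hearts, overlapping between genotypes. The muscle caveolin Cav3 was at -0.24 ± 0.14, and the caveola coat genes Ptrf and Prkcdbp at -0.066 ± 0.21 and -0.26 ± 0.20. For genes of Weibel-Palade bodies and von Willebrand factor handling 6 of 12 were higher, with a median of 0.026 (the secretory GTPase Rab27a at -0.57 ± 0.36). P-selectin, Selp, stored beside von Willebrand factor, was too low to test at 0.320 to 0.427 CPM. For ETS and other endothelial transcription factors 14 of 18 were higher, against 47.5% of all genes tested, with a median of 0.17. The ETS genes Fli1, Ets1 and Elf2 were at 0.042 ± 0.15, 0.12 ± 0.14 and 0.17 ± 0.13, and Klf4 at 0.61 ± 0.31.

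Markers of arterial and capillary endothelium stood in different directions within the pairs. Of 12 arterial genes 11 were higher in the male and lower in the female pair (32.8% of all genes tested), with medians of 0.39 and -0.28. With library totals 6 were (14.6% of all), with medians of 0.23 and -0.087. The Notch ligand Dll4, chosen after its values were seen, was at 21.0 CPM in WT 1, 34.1 in WT 2, 29.7 in TG 1 and 18.3 in TG 2, high in WT 2 and TG 1. Of 10 capillary genes 7 were lower in the male and higher in the female pair (31.9% of all genes tested), with medians of -0.092 and 0.30, and 9 with library totals, where 55.6% of all genes tested were. Gpihbp1, a capillary protein that binds lipoprotein lipase and was chosen after its values were seen, was at 47.2 CPM in WT 1, 42.7 in WT 2, 40.8 in TG 1 and 57.2 in TG 2. Between genotypes 7 of 12 arterial genes (the connexin Gja4 at -0.35 ± 0.20, the ephrin Efnb2 at 0.16 ± 0.18) and 8 of 10 capillary genes (the water channel Aqp1 at 0.28 ± 0.15, Rgcc at 0.25 ± 0.30) were higher in TG, with medians of 0.019 and 0.084 and 0 past the edgeR test. The difference between the pairs was not tested for either list.

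The remaining lists held 0 called genes as well. Values were higher in TG for 3 of 5 venous genes (Bgn at 0.34 ± 0.16, Nr2f2 at 0.42 ± 0.33), 4 of 7 endocardial genes (Nfatc1 at 0.18 ± 0.14, Vwa1 at -0.29 ± 0.24) and 2 of 6 lymphatic genes (Prox1, which heart muscle also makes, at 0.29 ± 0.30, Lyve1 at 0.18 ± 0.23). For heart muscle and stroma they were higher for 9 of 12 cardiomyocyte genes (Atp2a2 at 0.25 ± 0.15, Actn2 at 0.39 ± 0.30), 7 of 12 fibroblast genes (Col1a1 at 0.56 ± 0.24, Fbln1 at 0.41 ± 0.20) and 4 of 12 smooth muscle and pericyte genes (Tagln at -0.48 ± 0.26, Rgs5 at 0.56 ± 0.37). For blood cells the counts were 1 of 16 leukocyte genes (Cd163 at -1.05 ± 0.47, Fcgr1 at -0.87 ± 0.97), 5 of 9 lymphocyte genes (Cd79b at 0.91 ± 1.01, Cd8a at -1.09 ± 1.96), 0 of 4 platelet genes (Ppbp at -0.79 ± 0.69, Itga2b at -0.29 ± 0.43) and 0 of 4 erythroid genes (Hba-a1 at -1.24 ± 0.61, Hbb-bs at -1.32 ± 0.69). For epicardial genes the count was 2 of 3 (Wt1 at 0.56 ± 0.32, Krt18 at -1.0 ± 0.84). The pericyte gene Rgs5 was at 1115 CPM in WT 1, 529 in WT 2, 1263 in TG 1 and 1167 in TG 2, low in WT 2 like Erg and Angpt1.

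**Figure D4:**
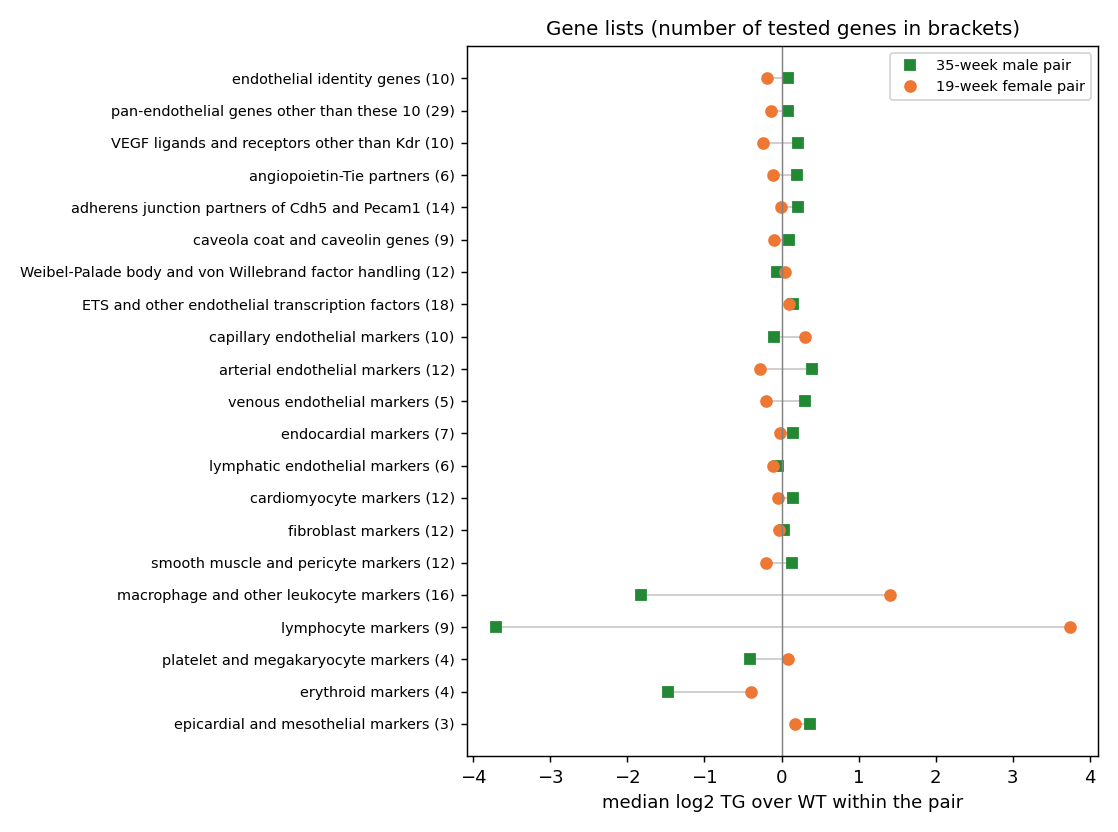
Median log2 ratio of TG over WT in the 35-week male pair (green squares) and the 19-week female pair (orange circles) for each gene list. Arterial genes lay at 0.39 and -0.28 and capillary genes at -0.092 and 0.30, while leukocyte genes lay at -1.82 and 1.41 and lymphocyte genes at -3.70 and 3.74.

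For the 4 genes whose levels spanned at least 0.5 on the log2 scale, the genes of most similar pattern over the 4 libraries were sought among 9951 genes of at least 5 CPM, by the root mean square difference of centred log2 CPM. For Vwf these were Fnbp1 (0.023) and Helz (0.024), with 102 genes within 0.1. For Kdr they were Sipa1l1 (0.0084) and Lysmd4 (0.011), with 639 genes within 0.1. For Egfl7 they were Ccnl2 (0.039) and Rasl11b (0.044), with 14 within 0.1. For Erg they were Mfap3l (0.037) and Zfp691 (0.046), with 28. The listed endothelial genes include none of these 8.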

How the data were processed

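Raw counts and a normalized signal, both by Ensembl gene, were deposited by the authors, and in the signal each library's counts were divided by a constant (0.917 to 1.08). The submitters' processing notes name CASAVA 1.8.2, FastQC 0.10.0, the aligner STAR 2.3.0, the counter HTSeq 0.6.1, DESeq and build mm10. Libraries came from a stranded total RNA kit, per the labels' protocols, and strand setting and annotation release of the counting are not given in the sources used here. Columns were matched to samples by the mouse numbers of the labels.

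Counts were tested with edgeR 4.0.16 in R 4.3.3 (filterByExpr with a minimum count of 10, TMM, quasi-likelihood test, Benjamini-Hochberg threshold of 0.05, no block). DESeq2 1.42.0, limma-voom (limma 3.58.1), other scalings, no filter, a trend with gene length, a replicate block and leaving out each library were alternatives. Ratios within pairs used a prior count of 2. The scripts were tested on simulated data. Positions and lengths came from GENCODE vM21 (same assembly, 99.2% of tested genes matched by Ensembl ID) and promoters from RefSeq (GRCm38.p6).

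The members and lists were chosen with earlier results of these data known. The genes named are the 10 members, 14 fixed partners, 6 context genes, the 2 genes of smallest p in every other list, and the 2 genes most like each member that spanned at least 0.5. Outside this rule Xist, Ddx3y, Mir126a, Gm20532, Agpat2, Gp1ba, Gp9, Gp5, Klf2, Dll4 and Gpihbp1 were chosen after their values were seen.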

Additional observations from a re-analysis of the deposited data

Results flagged for a closer look

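For 5 of the 10 endothelial identity genes the TG to WT ratio had opposite signs in the 35-week male and the 19-week female pair, with both ratios outside their counting error. In the male pair this held only narrowly for Tie1 (counting interval 0.0033 to 0.23) and Cav1 (-0.11 to -0.0039). The share of all genes tested with both ratios outside counting error was not computed. By sign alone with TMM, 5 of the 10 were higher in the male and lower in the female pair (32.8% of all genes tested). The other order held for 2 of the 10 (31.9% of all genes tested). On the log2 scale the male minus the female ratio was 1.41 for Vwf, 0.70 for Kdr, 0.61 for Cdh5, 0.38 for Tie1 and -0.28 for Cav1. The differences were not tested, since each pair held 1 mouse per genotype. With library totals as the scaling they were 1.05, 0.35, 0.26, 0.020 and -0.64, and Tie1 then had the same sign in both pairs.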

How the results depend on the processing

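For TG against WT, 0 of the 10 genes were called under every alternative run. Over all genes DESeq2 called 3, and leaving out 1 library gave 0 to 6, the 6 without WT 1. The number of the 10 higher in TG ran from 2 to 7 and their median from -0.13 to 0.063 as libraries were left out, and these ranges were -0.27 to 0.52 for Vwf, -0.068 to 0.057 for Pecam1, -0.22 to 0.16 for Cdh5, -0.26 to 0.26 for Kdr, -0.10 to 0.035 for Tek and -0.24 to 0.10 for Tie1, whose signs turned. Those of Egfl7 (-0.95 to -0.10), Erg (0.29 to 0.86), Emcn and Cav1 did not. With library totals Pecam1 turned to 0.012. Without WT 1 the unadjusted p was 0.00524 for Egfl7 and 0.00864 for Erg, with adjusted p of 1.00 by edgeR. With the length trend removed (Spearman rho 0.230 across genes, which are not replicates) no sign turned among the 10, and Vwf was at 0.047, Kdr at -0.067 and Pecam1 at -0.023. For males against females, 4 genes were called over all, 7 without the filter, 34 by DESeq2, 0 with genotype as a further term and 0 to 7 with 1 library left out. Without TG 2 the unadjusted p was 0.00882 for Egfl7 and 0.0312 for Erg, with adjusted p of 0.985 by edgeR. Ranges over left-out libraries were -0.44 to 0.40 for Vwf, -0.24 to 0.10 for Cdh5, -0.36 to 0.014 for Kdr, -0.0078 to 0.11 for Tek, -0.17 to 0.71 for Erg, -0.094 to 0.027 for Emcn and -0.098 to 0.13 for Cav1, whose signs turned. Leaving out a library also leaves fewer samples, and the causes of these changes were not tested.

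Same-numbered mice share sex and age, but the deviations of WT 1 and TG 1 from their genotype means correlated at -0.45 over tested genes. With the replicate number as a block 0 genes were called, 61 had an unadjusted p below 0.05 and the median of the 10 genes was -0.020. With the pairing crossed, chosen after seeing the data, 0 were called and 303 had an unadjusted p below 0.05 by edgeR, 1 of the 10 genes among them. With 2 mice per genotype, differences of the size seen for Egfl7 and Erg did not pass the threshold, at 259 to 2108 counts per library.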
